A study of Caenorhabditis elegans with 6 samples.

Results

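The dod genes ("downstream of DAF-16") of Caenorhabditis elegans were followed in worms raised on tyrosol and in worms raised on vehicle. The members are the 7 genes dod-3, dod-6, dod-17, dod-19, dod-21, dod-22 and dod-24, taken by symbol from the array annotation, of 17118 genes measured in all. Of the 7 genes, 6 have a probe set that names them alone. The only probe set for dod-21 also names a second gene, so no value is given for dod-21. Among the 6, dod-19 alone has more than 1 such probe set, and its brighter one over the 6 arrays was taken as the main one.

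Both groups were whole adults of fer-15(b26), a sperm mutant that is sterile when raised warm, so all arrays carry this mutation. The tyrosol group received 250 µM tyrosol, the phenolic alcohol 2-(4-hydroxyphenyl)ethanol of olive oil, from the egg on, and the control group received the vehicle, with ethanol at 0.1% in the plates of both. Worms were raised at 25 °C and collected on day 4 of adulthood, with 3 arrays per group. The labels do not say how many worms or separate cultures stand behind an array, so the p-values rest on a spread between arrays that may be technical. In RNA of whole worms, fewer cells of a type and less RNA per cell cannot be told apart.

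DAF-16 is the FOXO transcription factor at the end of the insulin-like signalling pathway. Signalling through the receptor DAF-2 keeps it out of the nucleus, and when signalling falls it enters the nucleus and lifespan is extended. The dod genes were named in a comparison of daf-2 mutants with and without daf-16: dod-3 and dod-6 belong to the genes that DAF-16 raises, and dod-17, dod-19, dod-21, dod-22 and dod-24 to those that are lower when DAF-16 is active. Many genes of the lower group are expressed in the intestine and respond to bacterial pathogens, and several encode secreted proteins with a CUB-like domain. Tyrosol is described by the series title as extending lifespan, and the question here is whether these reporters of DAF-16 output differ with it.

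None of the 6 measured dod genes passed as changed. The rank product, the test that the study's design names, called 0 of 6 at an estimated false discovery rate under 0.05, where it called 0.927% of all 22548 probe sets as higher and 0.0266% as lower with tyrosol. Limma, with p-values adjusted by Benjamini-Hochberg over all probe sets, also called 0 of 6, against 0.337% of all. With the replicate number as a block limma again called 0 of 6, against 0.723%. At an unadjusted limma p under 0.05 stood 2 of 6, dod-6 and dod-24, against 7.33% of all probe sets. The differences ran from -0.30 for dod-24 to 0.37 for dod-6 on the log2 scale, 4 of 6 were below 0, and their median was -0.12, beside a median of -0.017 over all genes. Of all probe sets, 56.2% had a difference below 0.

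One array bears on several of these values. The deviations of tyrosol replicate 2 from its group mean had an SD of 0.21 (log2), where each of the remaining 5 arrays had 0.11 to 0.15. A mean over 4 bacterial poly-A controls put the signal of the 3′ probe set above that of the middle probe set by 1.48 there, and by 0.69 to 0.80 elsewhere. This array had the highest level of the 6 arrays for dod-3, dod-6 and dod-19, and its part in those differences was not tested beyond leaving it out.

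Among the genes that DAF-16 raises, dod-3 had the smallest difference of all members. Its level was 7.87, 8.25 and 7.78 in tyrosol replicates 1, 2 and 3, against 7.89, 8.13 and 7.84 in the control replicates (log2). The replicates with the number 2 were the highest of each group, and the groups overlapped. The means were 7.97 ± 0.25 in tyrosol worms and 7.95 ± 0.15 in control worms (log2, SD, n = 3 each), a difference of 0.011 (SE 0.15, limma adjusted p = 0.99). The 95% interval of the difference, from -0.32 to 0.34, leaves room for levels between 0.80 and 1.27 times those of the controls. Its sign turned without tyrosol replicate 2, at -0.13.

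The second gene of that kind, dod-6, had the highest difference of the members. It read 6.96, 7.54 and 7.24 in tyrosol replicates 1, 2 and 3, against 6.81, 6.91 and 6.90 in the control replicates (log2). Every tyrosol value lay above every control value, by 0.046 at the nearest pair, and the tyrosol arrays spread more widely. The means were 7.25 ± 0.29 in tyrosol worms and 6.87 ± 0.053 in control worms (log2, SD, n = 3 each), a difference of 0.37 (SE 0.15) or 1.29-fold. Neither test called it (rank product false discovery rate 0.47, limma adjusted p = 0.62), and without tyrosol replicate 2 the difference was 0.23. The probe set of dod-6 is of the cross-hybridising kind, with probes shared with other sequences, so a similar transcript could add to its signal. The adjacent gene on the same clone, T20G5.8, is read on a cross-hybridising probe set as well, and differed by 0.26 (SE 0.10, limma adjusted p = 0.63), with no overlap between the groups.

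**Figure D1:**
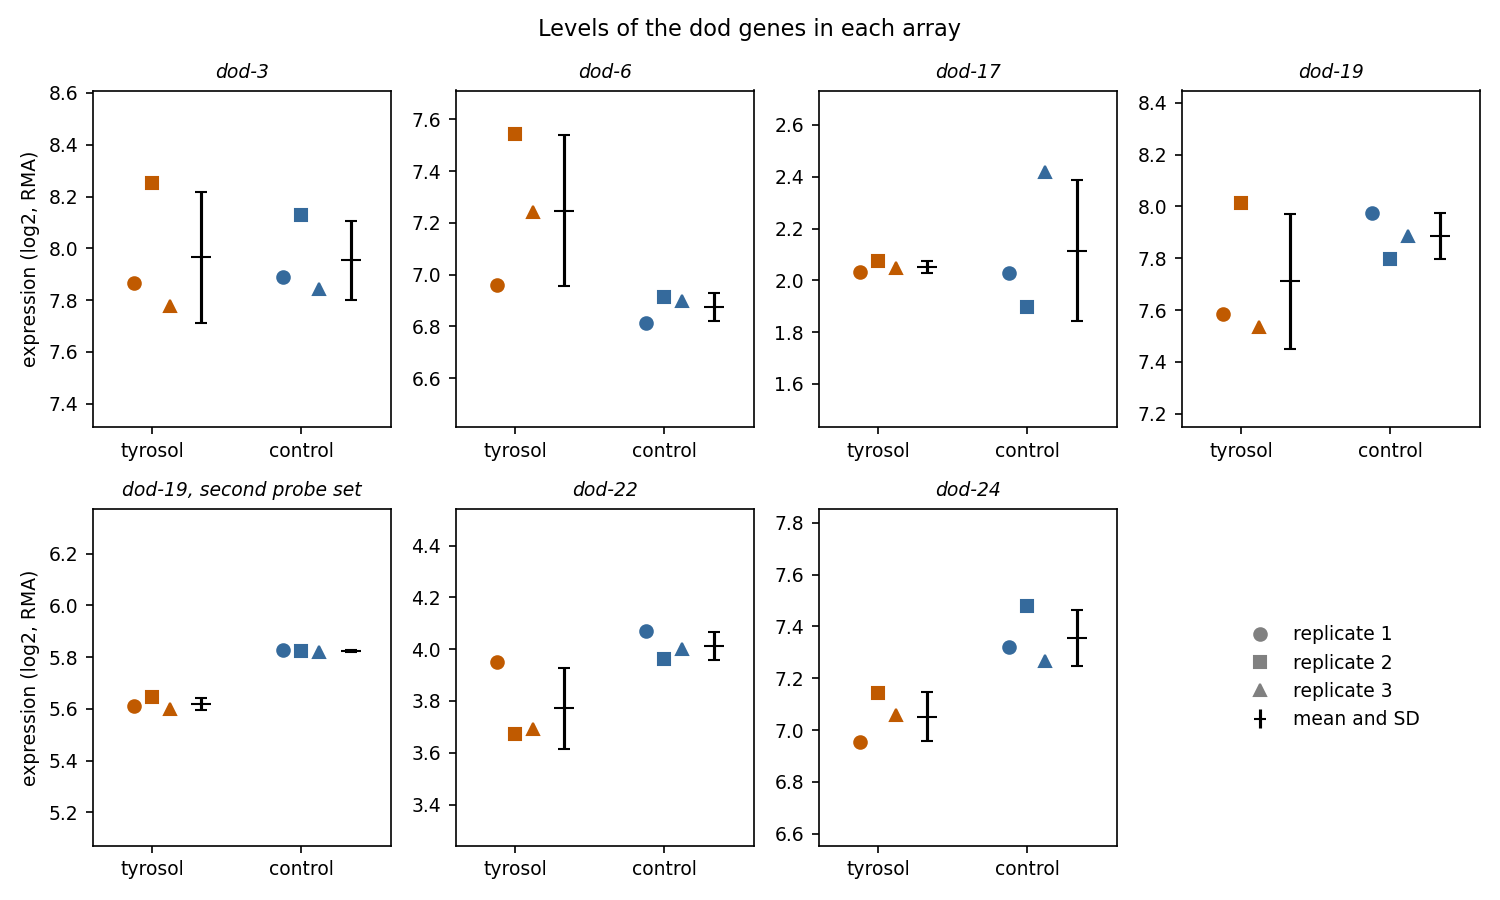
Levels of each measured dod gene by array (y axis: log2 RMA expression value, each panel spanning the same range around its own centre; x axis: tyrosol and control groups). Symbols stand for replicates 1, 2 and 3, and bars for the mean and SD of 3 arrays. The groups stand apart for dod-6, dod-22, dod-24 and the second probe set of dod-19, and overlap for dod-3, dod-17 and the main probe set of dod-19.

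The 4 measured members that are lower when DAF-16 is active (dod-17, dod-19, dod-22 and dod-24) had differences below 0, without a call. The lowest difference was that of dod-24, which encodes a CUB-like domain protein. It read 6.95, 7.14 and 7.06 in tyrosol replicates 1, 2 and 3, against 7.32, 7.48 and 7.27 in the control replicates (log2). All tyrosol arrays lay below all control arrays, and the spread was alike in the 2 groups. The means were 7.05 ± 0.094 in tyrosol worms and 7.36 ± 0.11 in control worms (log2, SD, n = 3 each), a difference of -0.30 (SE 0.10), or 0.81 times the control level with a 95% interval from 0.69 to 0.95. The rank product false discovery rate was 0.84 and the limma adjusted p 0.49. Without single arrays the difference stayed between -0.35 and -0.24.

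For dod-22, another gene of a CUB-like domain protein, the groups only just stood apart. Its level was 3.95, 3.67 and 3.69 in tyrosol replicates 1, 2 and 3, against 4.07, 3.96 and 4.00 in the control replicates (log2). Tyrosol replicate 1 lay 0.010 below the lowest control and the other 2 tyrosol arrays lay well below it. The means were 3.77 ± 0.16 in tyrosol worms and 4.01 ± 0.054 in control worms (log2, SD, n = 3 each), a difference of -0.24 (SE 0.11, 95% interval from -0.48 to 0.0039). Neither the rank product (false discovery rate 0.93) nor limma (adjusted p = 0.69) called it.

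The main probe set of dod-19 read 7.58, 8.01 and 7.54 in tyrosol replicates 1, 2 and 3, against 7.97, 7.80 and 7.88 in the control replicates (log2). Tyrosol replicate 2 was the highest of all arrays and the other 2 tyrosol arrays were the lowest, so the groups overlapped. The means were 7.71 ± 0.26 in tyrosol worms and 7.89 ± 0.088 in control worms (log2, SD, n = 3 each), a difference of -0.17 (SE 0.14, limma adjusted p = 0.84). Without tyrosol replicate 2 it was -0.33, again without a call (false discovery rate 0.58). The second probe set of dod-19 gave tighter values. It read 5.61, 5.65 and 5.60 in tyrosol replicates 1, 2 and 3, against 5.83, 5.82 and 5.82 in the control replicates (log2). All tyrosol values lay below all control values, and tyrosol replicate 2 did not stand out. The difference there was -0.21 (SE 0.083, limma adjusted p = 0.64, rank product false discovery rate 0.95), so the 2 probe sets had the same sign and similar size, and disagreed on tyrosol replicate 2.

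The last measured member, dod-17, was faint: its level was below the median of every array, which lay between 2.57 and 2.61. It read 2.03, 2.08 and 2.05 in tyrosol replicates 1, 2 and 3, against 2.03, 1.90 and 2.42 in the control replicates (log2). Control replicate 3 was the highest and control replicate 2 the lowest, with the tyrosol arrays between them. The difference was -0.063 (SE 0.14, limma adjusted p = 0.95), and it was 0.090 without control replicate 3. At such low signal a difference could go unseen.

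Of the 6 representing probe sets, 3 had groups that did not overlap, dod-6 with tyrosol higher and dod-22 and dod-24 with tyrosol lower. Over all probe sets 6.75% did not overlap with tyrosol higher and 6.64% with tyrosol lower, 13.4% in all. With tests that made no call, the intervals give what the arrays allow. The 95% interval lay above 0 for dod-6 and below 0 for dod-24 and the second probe set of dod-19, each before any adjustment for the number of probe sets. The full width of these intervals over the 7 probe sets was 0.38 to 0.67 on the log2 scale.

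**Figure D2:**
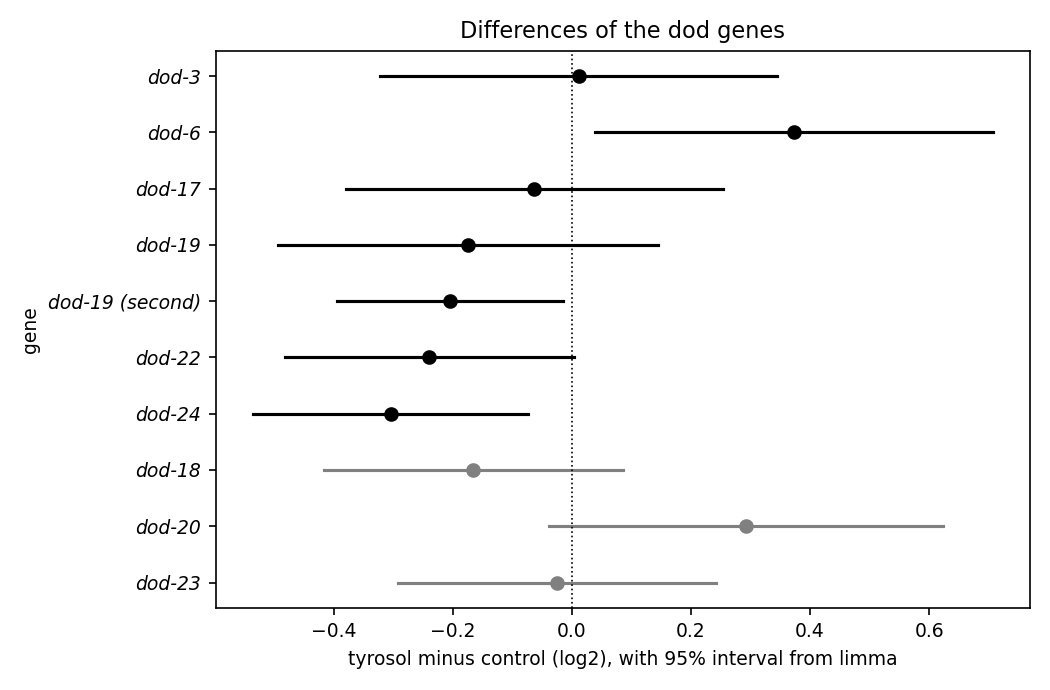
Difference between tyrosol and control worms for each dod gene (x axis: log2, tyrosol minus control; points: difference of means; lines: 95% interval from limma, not adjusted for multiple testing; n = 3 arrays per group). Black marks the members and grey the other dod genes on the array. The differences run from -0.30 for dod-24 to 0.37 for dod-6.

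The array holds 3 further dod genes of the group that is lower when DAF-16 is active. The highest of them by difference, dod-20, read 1.86, 1.72 and 1.85 in tyrosol replicates 1, 2 and 3, against 1.41, 1.31 and 1.84 in the control replicates (log2), a difference of 0.29 (SE 0.14, limma adjusted p = 0.74). These values lie below the array medians, and the tyrosol and control groups overlapped. The differences of dod-18 and dod-23 were -0.17 (SE 0.11) and -0.024 (SE 0.12), with limma adjusted p of 0.81 and 0.98. Neither test called any of the 3.

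Several members lie close together on the genome. In the gene table of the assembly WBcel235, used here for gene order alone, dod-21, dod-24, dod-22 and dod-17 are the genes at positions 1, 3, 10 and 13 of a run of 13 neighbouring protein-coding genes on chromosome IV. On chromosome V, dod-19 and dod-20 are separated by 2 genes, irg-8 and Y39D8A.1. In the run on chromosome IV 11 of the 13 genes were measured and 10 of these had a difference below 0, with a median of -0.18, beside 9463 of all 17118 genes below 0. The 8 measured genes of the run that are not members had a median of -0.16, and 7 of them were below 0. The rank product and limma called 0 of the 11, and 2 had an unadjusted limma p under 0.05 (7.33% of all probe sets). In 5 the groups did not overlap, all with tyrosol lower (6.64% of all probe sets). Among these 5 are the members dod-22 and dod-24 and 3 of the 8 other genes. Of those 3, dct-19 and F55G11.10 lay below the array median on every array.

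Next to dod-17 lies mbug-1, which had the lowest difference of the run. It read 7.44, 7.83 and 7.52 in tyrosol replicates 1, 2 and 3, against 7.95, 8.06 and 7.96 in the control replicates (log2), a difference of -0.39 (SE 0.12, limma adjusted p = 0.43). All tyrosol values lay below all control values. Next to dod-19 lies irg-8, an infection response gene, which read 6.62, 6.97 and 6.46 in tyrosol replicates 1, 2 and 3, against 7.13, 7.41 and 7.07 in the control replicates (log2). Again the groups did not overlap, and the difference of -0.52 (SE 0.15) passed neither the rank product (false discovery rate 0.40) nor limma (adjusted p = 0.37). Of the 8 measured genes of the run on chromosome IV that are not members, 5 lay below the array median on every array.

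**Figure D3:**
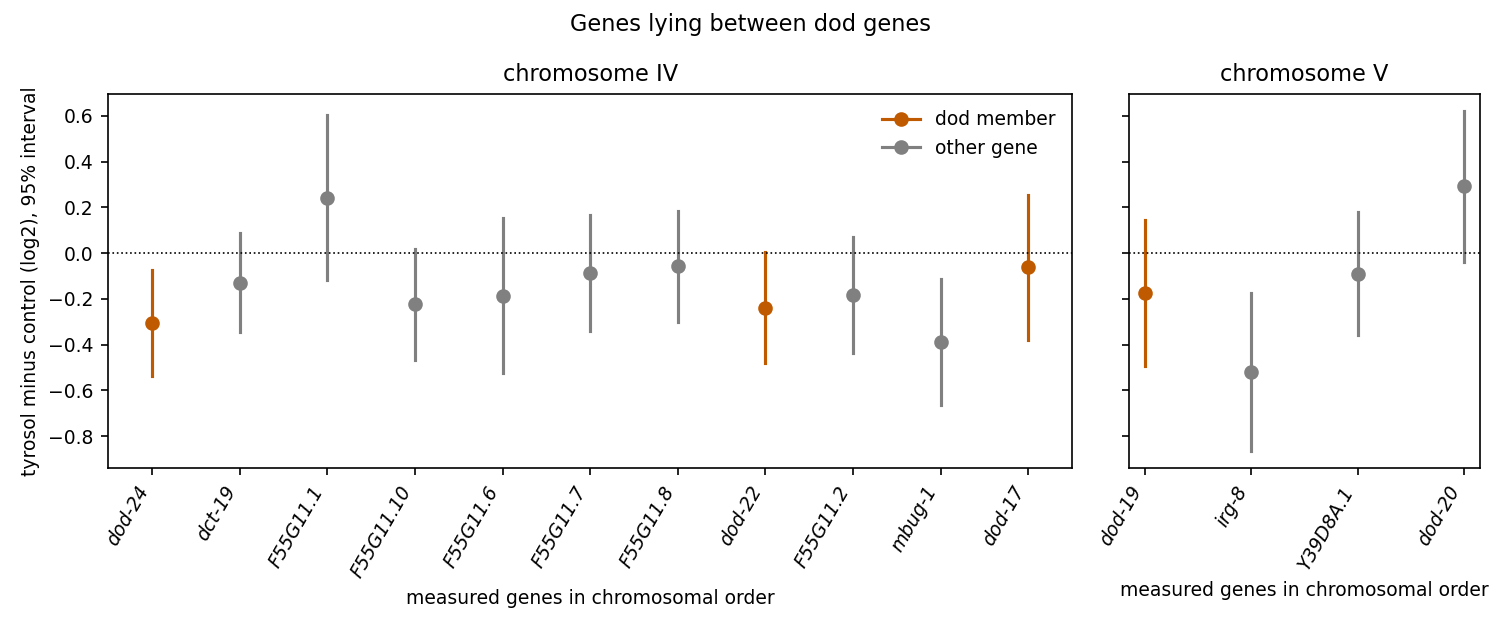
Differences of the measured genes in chromosomal order, from dod-24 to dod-17 on chromosome IV and from dod-19 to dod-20 on chromosome V (y axis: log2, tyrosol minus control, with the 95% interval from limma; x axis: gene order, not distance). Orange marks the dod members and grey other genes. On chromosome IV all genes but F55G11.1 lie below 0, and irg-8 beside dod-19 has the lowest value of both runs at -0.52.

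The clones that carry the members (C24B9 with dod-3, T20G5 with dod-6, K10D11 with dod-17, ZK6 with dod-19, C32H11 with dod-21 and dod-24, and F55G11 with dod-22) were also read whole, members left out. On C24B9, T20G5, K10D11, ZK6, C32H11 and F55G11 the median differences were -0.0067, 0.025, 0.056, -0.014, -0.094 and -0.18, over 10, 10, 5, 9, 7 and 7 measured genes. Both tests called 0 of these genes. An unadjusted limma p under 0.05 was held by 0, 1, 0, 3, 0 and 1 of them, against 7.33% of all probe sets. The 3 on clone ZK6 are irg-8, the lipase gene lipl-5, at 0.26 (SE 0.11), and ZK6.6, at -0.25 (SE 0.10).

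The genes upstream of the dod genes were not called either. Of 22 genes of the insulin receptor pathway and the partners of DAF-16, the rank product and limma called 0. An unadjusted limma p under 0.05 was held by 3, against 7.33% of all probe sets. Of the 22, 11 were above 0 and 11 below, and the median difference was 0.00082. The receptor gene daf-2 read 2.35, 2.37 and 2.33 in tyrosol replicates 1, 2 and 3, against 2.70, 2.22 and 2.27 in the control replicates (log2), below the array medians in all but control replicate 1. The probe set of daf-2 is cross-hybridising. The level of daf-16 was 5.69, 5.63 and 5.70 in tyrosol replicates 1, 2 and 3, against 5.93, 5.69 and 5.81 in the control replicates (log2), with overlap and a limma adjusted p of 0.82. For pqm-1, a zinc finger gene that acts on many of the genes lower in daf-2 mutants, the difference was 0.058 (SE 0.088). The lowest limma p of the list was that of pptr-1, a regulatory subunit of the phosphatase that acts on AKT-1, at -0.41 (SE 0.11, limma adjusted p = 0.33).

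Other genes that DAF-16 raises gave 0 calls by both tests among 25 measured. Their median difference was -0.068, 5 had an unadjusted limma p under 0.05, and 5 stood apart with tyrosol higher and 1 with tyrosol lower, where all probe sets gave 7.33%, 6.75% and 6.64%. The lowest limma p was that of the small heat-shock gene hsp-16.41, which read 5.31, 5.65 and 5.29 in tyrosol replicates 1, 2 and 3, against 4.89, 4.89 and 4.91 in the control replicates (log2). Its difference of 0.52 (SE 0.12) did not pass (rank product false discovery rate 0.14, limma adjusted p = 0.18). The other measured small heat-shock genes of the list, named after their values were seen, were hsp-16.2, at 0.66 (SE 0.24, false discovery rate 0.066), hsp-12.3, at 0.43 (SE 0.11), sip-1, at -0.011 (SE 0.086), and hsp-12.6, at -0.25 (SE 0.12). Tyrosol replicate 2 was the highest array for hsp-16.41 and hsp-16.2, at 5.65 and 5.52, as it was for dod-6.

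Of 16 other genes lowered by DAF-16, a list that holds dod-18, dod-20 and dod-23, both tests called 0. An unadjusted limma p under 0.05 was held by 2, against 7.33% of all probe sets. Of the 16, 10 were below 0 and the median was -0.032. The lowest limma p was that of acdh-1, an acyl-CoA dehydrogenase gene, at -0.24 (SE 0.090, limma adjusted p = 0.61), with no overlap between the groups. The second of the 2, pho-1, named after its values were seen, went the other way. Its difference was 0.36 (SE 0.14, limma adjusted p = 0.63), and the groups overlapped.

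Since some dod genes respond to pathogens through the p38 kinase cascade, that cascade and a list of pathogen response genes were set beside them. The 7 measured genes of the cascade all had differences above 0, beside 7655 of all 17118 genes. Their median was 0.35, and neither test called any of them. Of the 7, 4 had an unadjusted limma p under 0.05 and 5 stood apart with tyrosol higher, against 7.33% and 6.75% of all probe sets. The level of pmk-1, the p38 kinase gene, was 4.77, 5.09 and 4.86 in tyrosol replicates 1, 2 and 3, against 4.75, 4.74 and 4.69 in the control replicates (log2), a difference of 0.18 (SE 0.11, limma adjusted p = 0.79). The lowest limma p was that of vhp-1, a phosphatase gene that restrains such kinases. It read 5.94, 6.11 and 6.06 in tyrosol replicates 1, 2 and 3, against 5.56, 5.71 and 5.49 in the control replicates (log2), a difference of 0.45 (SE 0.10, limma adjusted p = 0.17). The groups did not overlap for vhp-1 and, by a narrow margin, for pmk-1. Tyrosol replicate 2 was the highest array for both, though not for most genes of the cascade.

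Of 28 measured pathogen response genes 12 were above 0 and 16 below, with a median of -0.016. The rank product called 2 of them higher, clec-60 and irg-2, and 0 lower, against 0.927% and 0.0266% of all probe sets. For the C-type lectin gene clec-60 the difference was 1.06 (SE 0.23, limma adjusted p = 0.16), without overlap of the groups. For the infection response gene irg-2 it was 0.75 (SE 0.26, limma adjusted p = 0.53), and the groups overlapped. Limma called 0 of 28, against 0.337% of all probe sets, with 6 at an unadjusted p under 0.05, against 7.33%. With the replicate number as a block limma called 2 of 28, against 0.723% of all probe sets. These were irg-2 (adjusted p = 0.041) and F01D5.5 (adjusted p = 0.044). The lowest limma p of the list was that of F01D5.5, at -0.69 (SE 0.12, limma adjusted p = 0.082), which read 6.20, 6.56 and 6.19 in tyrosol replicates 1, 2 and 3, against 7.04, 7.07 and 6.91 in the control replicates (log2). The rank product did not call F01D5.5 (false discovery rate 0.061).

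**Figure D4:**
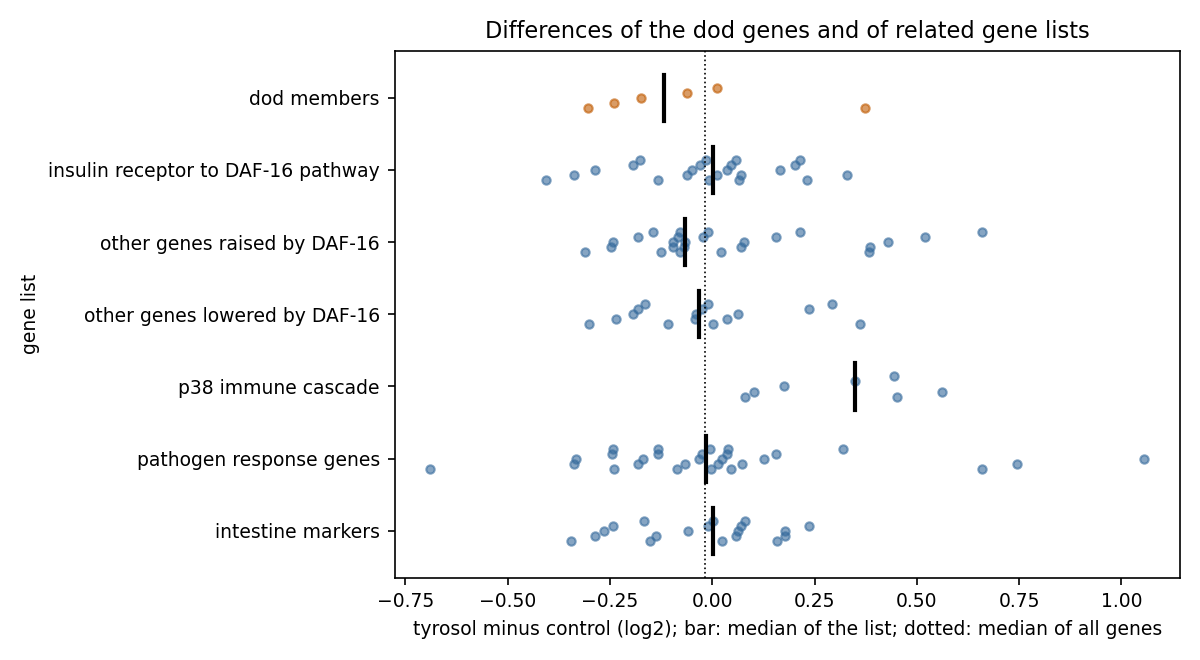
Differences of the measured genes of each list (x axis: log2, tyrosol minus control; 1 point per gene, spread vertically for legibility; black bars: median of the list; dotted line: median of all 17118 genes, -0.017). The dod members lie between -0.30 and 0.37, and the 7 genes of the p38 cascade lie above 0.

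Markers of the intestine, where many dod genes are expressed, were read beside them. Over 19 measured intestine markers the mean level was 6.25 to 6.34 in the tyrosol arrays, against 6.30 to 6.34 in the control arrays (log2). Of these markers 10 were above 0 and 9 below, with a median of 0.0015 and 0 calls by the rank product or limma. At an unadjusted limma p under 0.05 stood 2, against 7.33% of all probe sets. These 2 were the intestinal GATA factor genes elt-2 and elt-7, at -0.29 (SE 0.088) and -0.34 (SE 0.12), both without overlap and with tyrosol lower. In all, 3 markers stood apart with tyrosol lower, elt-2, elt-7 and ifb-2, against 6.64% of all probe sets. With tyrosol higher stood apart 2, ifc-2, at 0.24 (SE 0.11), and eps-8, at 0.18 (SE 0.085), against 6.75%. The part of these markers in the values of the dod genes was not tested. Among markers of other cells, the rank product called 5 of 14 epidermis genes, 20 of 23 sperm genes and 2 of 14 neuron genes higher, against 0.927% of all probe sets. Limma called 1 epidermis, 8 sperm and 0 neuron genes, against 0.337%, with 3 neuron genes at an unadjusted p under 0.05, against 7.33%. Of the 23 sperm genes, 20 are read on cross-hybridising probe sets. Of 12 body wall muscle markers both tests called 0, with 2 at an unadjusted limma p under 0.05, against 7.33% of all probe sets. The part of these cells in the values of the dod genes was not tested.

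The genes most like each member over the 6 arrays were taken among those with a range of at least 0.5 on the log2 scale and a probe set that is not cross-hybridising, 4816 or 4817 genes for each member. With so many genes and 6 arrays high values arise easily, and they describe a shared profile of arrays only. For dod-3 the nearest were F09E10.1 and K02B7.3 (Pearson r = 0.998 and 0.997), both highest on the arrays with replicate number 2. For dod-6 they were mboa-3 and ZK287.1 (r = 0.996 and 0.990), for dod-17 F59B10.2 and C08F11.3 (r = 0.985 and 0.975), and for dod-19 aptf-4 and Y5H2B.3 (r = 0.966 and 0.962). For dod-22 they were ilkp-1 and angl-1 (r = 0.979 and 0.973), and for dod-24 T24B8.7 and K08B12.1 (r = 0.994 and 0.989).

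**Figure D5:**
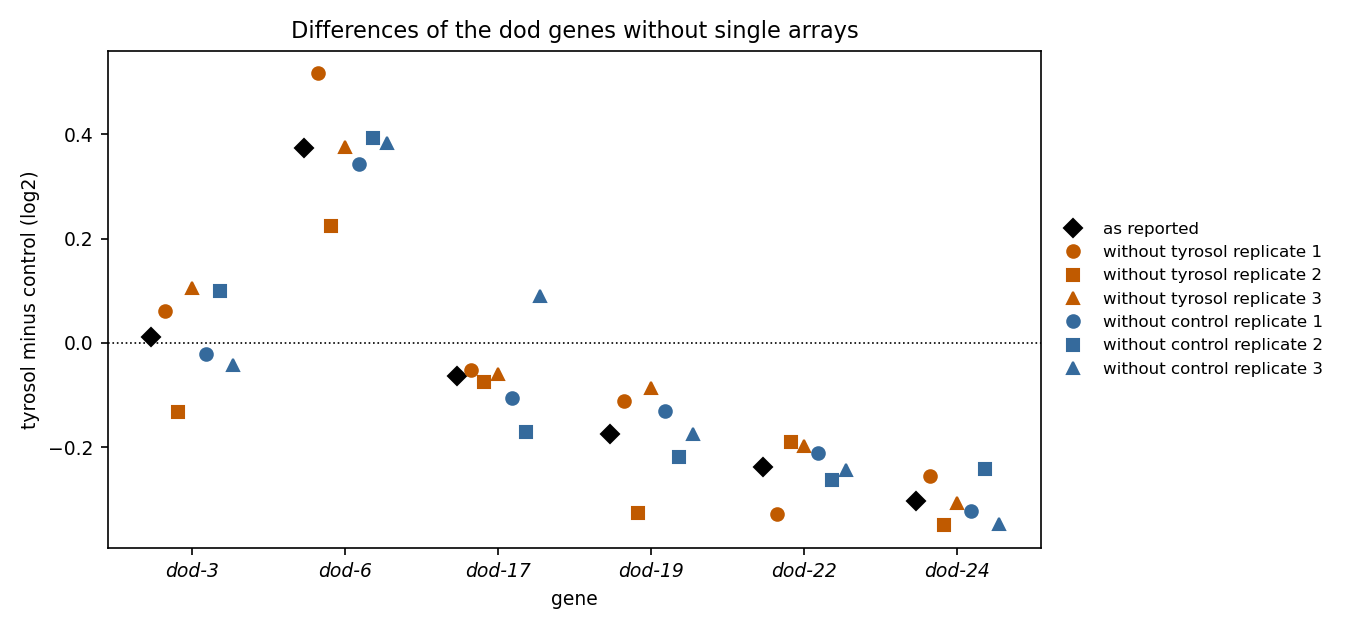
Differences of the 6 measured dod genes with all arrays and without each array in turn (y axis: log2, tyrosol minus control; x axis: gene; black diamonds: all 6 arrays; coloured symbols: 1 array left out). The values of dod-6 stay above 0, those of dod-19, dod-22 and dod-24 stay below 0, and those of dod-3 and dod-17 cross 0.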

How the data were processed

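Messenger RNA of whole worms was measured on 6 Affymetrix C. elegans Genome Arrays, 3 per group, grouped by the labels' titles. The authors deposited log2 values from RMA, per the labels and the design text, a method that corrects background, quantile-normalises and summarises the probes of each set. No version of RMA is stated, the log base was taken from the range of the values, and no scanner files were used. Of 22625 probe sets, 77 control probe sets were left out. Names came from the platform annotation, updated through Entrez numbers with a RefSeq gene table: 20766 probe sets name 1 gene, 887 several and 895 none. Probe sets ending in _x_at or _f_at (1227) are called cross-hybridising. Those ending in _s_at, among them the main probe sets of dod-3, dod-19 and dod-24, were not counted as such, and sharing of their probes was not examined. The genome build of the array is not given, so no coordinates or sequences are printed.

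The rank product was programmed in Python (3.11.15; pandas 2.3.3, numpy 2.4.6) from all 9 tyrosol-minus-control differences and 100 permutations within arrays. Limma 3.58.1 in R 4.3.3 (lmFit, eBayes, two-sided, Benjamini-Hochberg) gave differences, standard errors, 95% intervals and adjusted p, called under 0.05. Both were tested on simulated data, in which the rank product called more unchanged probe sets than its estimated rate when probe sets differed in spread. There it called 73 unchanged probe sets beside 194 of 200 changed ones, and limma called 6 beside 151. The rank product calls given here may therefore hold more false ones than the rate states. Precision is set by how few arrays there are: the standard error of a difference had a median of 0.12.

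The deviations of same-numbered tyrosol and control arrays from their group means had a Pearson r of 0.11, 0.37 and 0.26 for numbers 1, 2 and 3. Differently numbered arrays were not compared in this way. The replicate number of the sample titles was also fitted as a block. That arrays of equal number belong together is an assumption. The members and lists were chosen with earlier results of these data known. Some genes stand in more than 1 list, so the list counts are not separate observations. Among them are hsp-16.2 (raised by DAF-16, pathogen response) and elt-2 (insulin receptor pathway and partners, intestine). Named are all members, called genes of the lists, daf-2, daf-16, pqm-1, pmk-1, the lowest limma p of each list, neighbours, and the 2 genes most alike. Of the marker lists only intestine genes are named, chosen by their values: an unadjusted limma p under 0.05 or groups that did not overlap.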

Additional observations from a re-analysis of the deposited data

How the results depend on the processing

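The count of dod genes called stayed at 0 by the rank product and by limma under every alternative run: other normalizations on top of RMA (median centring, quantiles), averaging the probe sets of each gene, no cross-hybridising probe sets, a mean of at least 3, another seed, the replicate block, each array left out, and both replicate 2 arrays left out. No value is given for dod-6 without cross-hybridising probe sets, for dod-17 with the low-value filter, or for dod-21. Without single arrays the differences ran from -0.13 to 0.11 for dod-3, 0.23 to 0.52 for dod-6, -0.17 to 0.090 for dod-17, -0.33 to -0.088 for dod-19, -0.33 to -0.19 for dod-22 and -0.35 to -0.24 for dod-24. The sign of dod-3 turned without tyrosol replicate 2, control replicate 1 or control replicate 3 and, at -0.044, without both replicate 2 arrays, and that of dod-17 without control replicate 3. The cause was not tested. Over all probe sets the rank product called 215, 101 to 213 without single arrays, and 103 without both replicate 2 arrays. Limma called 76, 0 to 84 without single arrays, 50 without cross-hybridising probe sets and 163 with the replicate block, which changed no call of a dod gene. With 3 arrays per group, the 95% intervals of the dod genes span 0.38 to 0.67 on the log2 scale.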
